A study of Rattus norvegicus with 16 samples.

Results

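The 8 genes described here are Cdkn1a, Mdm2, Ddb2, Zmat3, Bax, Ccng1, Gadd45a and Pcna, which are transcribed in response to p53 or act in the response to damaged DNA. They were taken by symbol from a table of 28168 loci that carry 17001 gene symbols, and of several loci with the same symbol the one highest on average was used. All 8 were found and all 8 passed the minimum of a mean of 1 FPKM, and only Gadd45a had 2 loci. FPKM scales sequenced fragments by transcript length and by the mapped total, so levels can be compared between genes.

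Poly-A RNA was sequenced from frontal cortex in 16 libraries, 4 for each of 4 groups. The animals were male Sprague Dawley rats, 11 weeks old at the start, kept on their diet for 7 weeks. Rats named chow ate chow and those named HF ate high fat food, and neither was injected. HF_PBS rats had high fat food plus injections of phosphate-buffered saline into the abdomen for 10 days. HF_5AzaD rats had the same food and the same course of injections, with 5-AzaD dissolved in the saline. This compound, a cytidine analogue also named decitabine, blocks DNA methyltransferases. No dose of 5-AzaD is given in the sources used here. The 3 high fat groups therefore share the diet, and both injected groups share the saline. Whether each library is a different rat is not stated, and p-values then reflect the spread among these samples alone, which may be technical. Any batch of library making or sequencing that ran with the injections cannot be told apart from them. The letters HFD stand for the diet alone in the design text and for the PBS animals in the titles. Groups here follow the treatment stated for each sample, and were these names exchanged, the differences of HF and of HF_PBS from chow would change places.

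The protein p53 is a transcription factor that is stabilised when DNA is damaged. It binds a pair of similar decamers in its target genes and switches on genes that halt the cell cycle, repair DNA or start apoptosis. Mdm2 is the ubiquitin ligase that marks p53 for destruction and is itself a target, which closes a feedback loop. 5-AzaD is incorporated into DNA of dividing cells and traps DNA methyltransferase there, whereas most cells of the adult cortex, neurons above all, no longer divide.

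Promoter sequences show what the data can be set against, since p53 targets are read as a group because of their shared element. RefSeq sequences of the build GRCr8 were at hand for 5 of the 8 genes: Cdkn1a, Mdm2, Ccng1, Gadd45a and Pcna. The 250 bases before the annotated start were searched on both strands for the p53 decamer. Its match is in capitals below. Cdkn1a is shown as the classical target, and Mdm2 and Pcna as the pair whose levels rose together.
Cdkn1a (chr20:7150682-7150931, plus strand): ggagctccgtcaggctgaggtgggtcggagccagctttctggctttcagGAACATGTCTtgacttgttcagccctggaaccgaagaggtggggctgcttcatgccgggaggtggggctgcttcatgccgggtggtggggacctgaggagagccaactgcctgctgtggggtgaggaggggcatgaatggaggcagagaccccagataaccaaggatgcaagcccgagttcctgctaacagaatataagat
Mdm2 (chr7:55200792-55201041, minus strand): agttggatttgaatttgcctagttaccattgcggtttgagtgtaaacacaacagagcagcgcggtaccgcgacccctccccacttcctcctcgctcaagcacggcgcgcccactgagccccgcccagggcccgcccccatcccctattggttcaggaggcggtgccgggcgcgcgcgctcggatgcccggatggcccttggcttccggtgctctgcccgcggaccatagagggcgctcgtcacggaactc
Pcna (chr3:139955821-139956070, minus strand): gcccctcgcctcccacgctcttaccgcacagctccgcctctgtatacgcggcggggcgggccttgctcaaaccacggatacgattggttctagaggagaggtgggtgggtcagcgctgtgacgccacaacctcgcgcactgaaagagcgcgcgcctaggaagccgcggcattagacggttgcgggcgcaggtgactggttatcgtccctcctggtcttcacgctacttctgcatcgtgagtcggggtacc

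The decamer was present in 6.56% of 27457 promoters of this length. Cdkn1a held 1 match, GAACATGTCT, that begins at position -201 from the start. Gadd45a held GGGCTAGCCC and Ccng1 held GGGCAAGCCT, at -48 and -232. Mdm2 and Pcna held none in this window, and sequence after the start or further upstream was not searched. The letters CCAAT, present in 34.3% of promoters on either strand, occurred in Mdm2, Pcna, Gadd45a and Ccng1 and not in Cdkn1a. GGGCGG, present in 32.4%, occurred in the same 4 genes, and TATAAA, present in 13.1%, in none of the 5. No decamer overlapped another of these motifs. CpG dinucleotides, the sites of DNA methylation, numbered 26 in Pcna and 25 in Mdm2, against 11 in Ccng1, 10 in Gadd45a and 6 in Cdkn1a. The median of all promoters was 6. A match describes the letters and says nothing about binding, and methylation of these windows was not analysed here.

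The levels of the 8 genes spanned a wide range. Ccng1 was the highest, with a mean of 72.6 FPKM over all libraries, above 91.7% of tested loci. Pcna (28.0), Bax (22.2) and Zmat3 (14.4) followed, and Mdm2 (10.4), Gadd45a (9.56) and Cdkn1a (8.30) lay near the middle of the tested loci. Ddb2 was the lowest at 1.06 FPKM, with only 1.09% of tested loci below it, close to the minimum for testing.

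**Figure D1:**
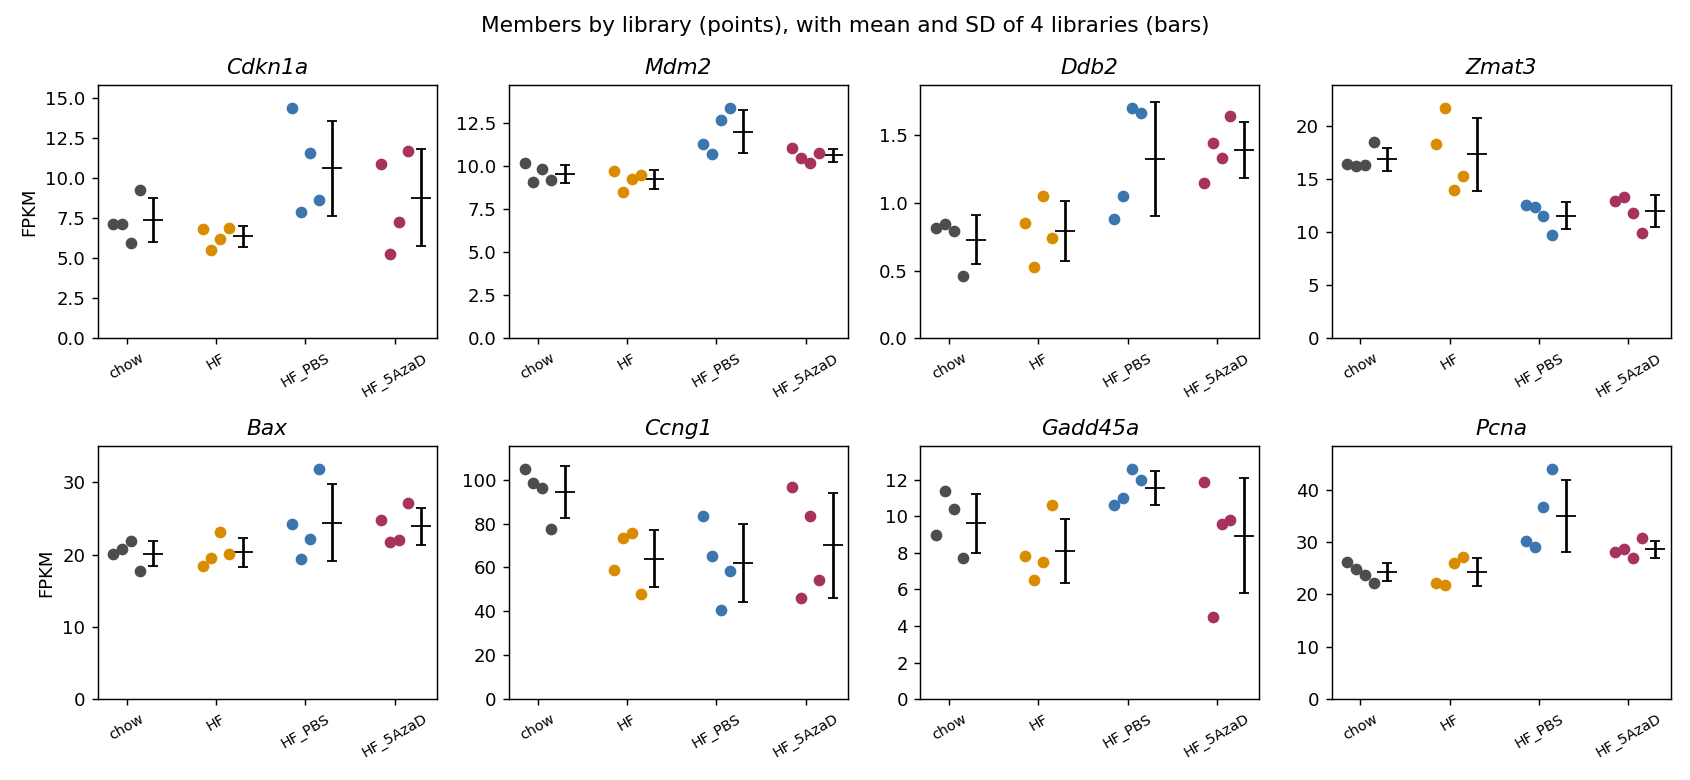
FPKM (vertical axes, from 0) of the 8 genes in each of the 4 groups. Each point is a library, and the bar beside the points gives the mean and SD of 4 libraries. For Zmat3 all 8 injected libraries lie at 9.75 to 13.3 FPKM, below all 8 uninjected ones at 14.0 to 21.7. The share of all loci that lie apart in this way was not counted.

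Differences between groups were tested with limma on log2(FPKM + 0.5) over 14824 loci. All adjusted p-values below are Benjamini-Hochberg values of limma over all these loci, and a gene passed at an adjusted p under 0.05. Log2 differences are on the log2(FPKM + 0.5) scale, which understates changes of low genes such as Ddb2. Group values are mean ± SD of 4 libraries.

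Between HF and chow none of the 8 genes passed, and none of the 14824 loci did (0% called), while 1020 loci (6.88%) and 1 of the 8 genes, Ccng1, had an unadjusted p under 0.05 in limma. Between HF_5AzaD and HF_PBS again 0 of 8 and 0% of loci passed, with 1100 loci (7.42%) and 1 gene, Pcna, at an unadjusted limma p under 0.05. The calls fell in comparisons of an injected with an uninjected group. In HF_PBS against HF, 3 of 8 rose (10.7% of all loci did) and 1 fell (13.2%), so that 4 of 8 changed beside 23.9% of loci. In HF_PBS against chow, 3 rose (12.4%) and 1 fell (15.7%), 4 of 8 beside 28.2%. In HF_5AzaD against chow 1 rose (7.18%) and 1 fell (9.11%), 2 of 8 beside 16.3%. In HF_5AzaD against HF 0 rose (6.61%) and 1 fell (7.64%), 1 of 8 beside 14.2%. With 8 genes, a share differs from the background by few genes. The median log2 difference of the 8 was 0.42 in HF_PBS against HF and 0.29 in HF_PBS against chow, where all loci had 0.01. It was 0.16 in HF_5AzaD against chow and 0.21 in HF_5AzaD against HF (all loci 0.00 and 0.02). These comparisons share groups and are not independent of each other.

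**Figure D2:**
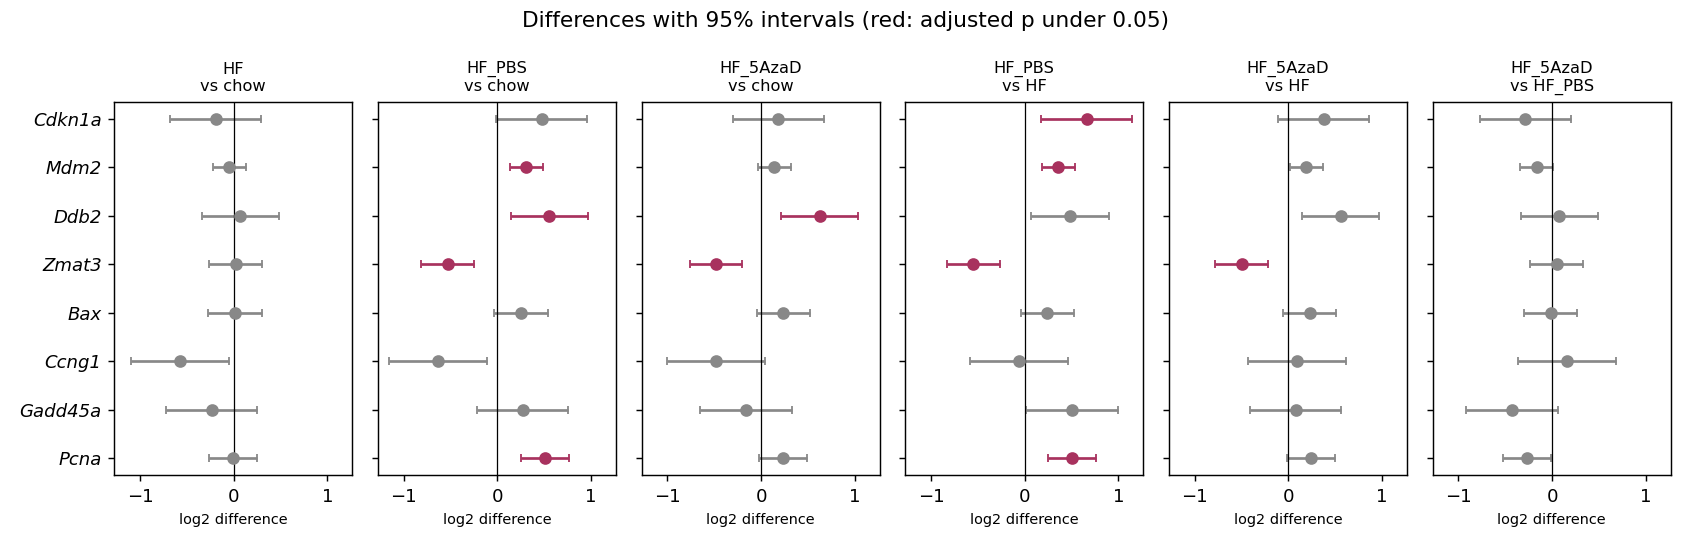
Log2 differences of log2(FPKM + 0.5) (horizontal axes) with 95% intervals for the 8 genes in the 6 comparisons of groups. Red marks an adjusted p under 0.05. Mdm2, Pcna and Zmat3 are marked in both comparisons of HF_PBS with an uninjected group.

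Mdm2, the ligase that limits p53, was higher in HF_PBS than in either uninjected group. Its levels were 10.2, 9.07, 9.83 and 9.20 FPKM in chow 1 to 4 and 9.74, 8.50, 9.25 and 9.52 in HF 5 to 8. HF_PBS 1 to 4 had 11.3, 10.7, 12.7 and 13.4, and HF_5AzaD 3, 5, 6 and 7 had 11.1, 10.5, 10.2 and 10.8. Every HF_PBS library thus lay above every uninjected one, as did 3 of 4 HF_5AzaD libraries. The share of all loci that lie apart from all uninjected libraries was not counted, here or for Pcna, Ddb2 and Bax below. Separation from 1 group was common: HF_PBS was fully apart from chow in 33.3% of loci and from HF in 21.2%. The difference of HF_PBS from HF was 0.36 (SE 0.0819, adjusted p = 0.00845), a 1.30-fold ratio of means, and that from chow 0.31 (adjusted p = 0.0149). HF_5AzaD lay above HF in all 4 libraries without passing (0.19, 95% interval 0.0174 to 0.368, adjusted p = 0.12). Without HF_PBS 4 the difference of HF_PBS from chow was 0.26 and no longer passed (adjusted p = 0.0557), and that from HF did not pass when only these groups were fitted (0.0614). Its coefficient of variation was the lowest of the 8 genes in chow (5.74%), HF (5.84%) and HF_5AzaD (3.77%), and 10.5% in HF_PBS, where only Gadd45a was lower (7.81%).

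Pcna is the sliding clamp that holds DNA polymerase on its template and is used in replication and repair. It stood at 26.2, 24.8, 23.7 and 22.2 FPKM in chow, at 22.1, 21.8, 26.0 and 27.1 in HF, at 30.2, 29.1, 36.7 and 44.0 in HF_PBS and at 28.1, 28.7, 26.9 and 30.8 in HF_5AzaD. HF_PBS 3 and 4 were the highest of the 16, and 7 of 8 injected libraries lay above all uninjected ones. The rise from HF to HF_PBS, 24.2 ± 2.71 to 35.0 ± 6.87, was 0.51 on the log2 scale (SE 0.120, adjusted p = 0.00984). From chow (24.2 ± 1.72) it was 0.50 (adjusted p = 0.00913). Both rises passed whichever single library was left out, but that from HF did not pass when only HF and HF_PBS were fitted (adjusted p = 0.0621). In HF_5AzaD the mean was 28.6 ± 1.60, 0.24 above HF (adjusted p = 0.182) and 0.27 below HF_PBS (95% interval -0.525 to -0.0116, adjusted p = 0.659).

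Zmat3 encodes a zinc finger RNA-binding protein and is a p53 target. It was the only one of the 8 that passed the test in all 4 comparisons of an injected with an uninjected group, and it fell in each. Levels were 16.4, 16.2, 16.3 and 18.5 FPKM in chow, 18.3, 21.7, 14.0 and 15.3 in HF, 12.6, 12.4, 11.5 and 9.75 in HF_PBS and 12.9, 13.3, 11.8 and 9.92 in HF_5AzaD. The injected and uninjected libraries did not overlap. How many of all loci lie apart in this way was not counted. Btrc, the gene most like Zmat3, also did, at 11.6 to 17.2 FPKM in injected and 18.2 to 32.3 in uninjected libraries. HF_PBS was lower than HF by -0.55 (SE 0.132, adjusted p = 0.0103) and lower than chow by -0.53 (adjusted p = 0.0109). Both passed whichever single library was left out, but the difference from HF did not pass when only HF and HF_PBS were fitted (adjusted p = 0.0543). HF_5AzaD was lower than HF by -0.50 (adjusted p = 0.0252) and than chow by -0.48 (adjusted p = 0.0285). The former did not pass without HF 5, HF 6 or HF_5AzaD 7 (adjusted p = 0.0505, 0.0884 and 0.0915), nor when only HF and HF_5AzaD were fitted (0.0942). The latter did not pass without HF_5AzaD 7 (0.105) or any 1 of the 4 chow libraries (0.0529 to 0.0795). Between HF_5AzaD (12 ± 1.52) and HF_PBS (11.6 ± 1.29) the difference was 0.05, with a 95% interval of -0.231 to 0.332.

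Ddb2, a damage-recognition subunit of nucleotide excision repair, was near the lower limit of the table. It was at 0.815, 0.842, 0.794 and 0.459 FPKM in chow, 0.850, 0.526, 1.05 and 0.741 in HF, 0.879, 1.05, 1.70 and 1.66 in HF_PBS and 1.15, 1.44, 1.33 and 1.64 in HF_5AzaD. All 4 HF_5AzaD libraries lay above all 8 uninjected ones, and in HF_PBS it was libraries 3 and 4 that stood high. Ddb2 rose from chow to HF_5AzaD by 0.63 (SE 0.193, adjusted p = 0.0412) and to HF_PBS by 0.55 (adjusted p = 0.045). Against HF the differences were 0.56 (adjusted p = 0.0651) and 0.48 (0.082). Both calls lay close to the threshold. The means in chow and HF (0.727 and 0.792) were under the minimum of 1 FPKM. Ddb2 was thus tested only because the injected groups were higher (1.32 in HF_PBS and 1.39 in HF_5AzaD). Its entry into the test depended on the same rise, so these calls are a description only. The rise to HF_5AzaD did not pass in 8 of 16 fits that each left out 1 library: chow 1 to 4, HF 5, and HF_5AzaD 5, 6 and 7 (adjusted p = 0.0503 to 0.128). The rise to HF_PBS did not pass in 10 of 16: chow 1 to 4, HF 5 and 8, HF_PBS 3 and 4, and HF_5AzaD 5 and 6 (0.0511 to 0.138), nor when only chow and HF_PBS were fitted (0.0789). HF_PBS against HF passed only without HF_PBS 1 (adjusted p = 0.0393).

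Cdkn1a encodes p21, the inhibitor of cyclin-dependent kinases through which p53 halts the cell cycle. Its levels were 7.17, 7.16, 5.99 and 9.27 FPKM in chow, 6.86, 5.53, 6.22 and 6.87 in HF, 14.4, 7.87, 11.6 and 8.63 in HF_PBS and 10.9, 5.29, 7.26 and 11.7 in HF_5AzaD. All HF_PBS libraries lay above all HF libraries but not above chow 4, and HF_5AzaD was split, with 2 libraries high and HF_5AzaD 5 the lowest of all 16. Cdkn1a rose from HF to HF_PBS by 0.66 (SE 0.228, 95% interval 0.176 to 1.15, adjusted p = 0.0477). That call was lost in 12 of the 16 fits that left out 1 library, namely all but those without HF_PBS 2 or HF_5AzaD 3, 5 or 7 (adjusted p = 0.0502 to 0.131 where lost), and when only HF and HF_PBS were fitted (0.0567). HF_PBS against chow was 0.47 (adjusted p = 0.129), and HF_5AzaD against HF 0.38 (0.27).

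Gadd45a encodes a small stress protein that binds Pcna and p21. It was at 8.95, 11.4, 10.4 and 7.69 FPKM in chow, 7.84, 6.50, 7.50 and 10.6 in HF, 10.6, 11.0, 12.6 and 12 in HF_PBS and 11.9, 4.47, 9.60 and 9.79 in HF_5AzaD. HF_PBS was the tightest group and lay just above HF, whereas HF_5AzaD 5 was again the lowest of all. No comparison passed. The largest was HF_PBS against HF at 0.51 (SE 0.229, adjusted p = 0.12), which passed only without HF_5AzaD 5 (adjusted p = 0.0238), a library of neither group that widens the shared spread. A lesser Gadd45a locus with a mean of 0.929 FPKM in chow, 0.952 in HF, 1.31 in HF_PBS and 1.03 in HF_5AzaD passed in no comparison either.

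Bax, the pore-forming member of the Bcl2 family that starts the mitochondrial route of apoptosis, passed in no comparison. It was at 17.8 to 21.9 FPKM in chow, 18.4 to 23.2 in HF, 19.4 to 31.9 in HF_PBS and 21.7 to 27.1 in HF_5AzaD. Of the 8 injected libraries, 4 were above all uninjected ones, with HF_PBS 4 the highest. The differences from chow were 0.25 in HF_PBS (95% interval -0.0327 to 0.536, adjusted p = 0.162) and 0.24 in HF_5AzaD (0.213), and HF differed from chow by 0.01 (-0.272 to 0.297).

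Ccng1 encodes cyclin G1. Its levels were 105, 98.6, 96.0 and 77.7 FPKM in chow, 58.9, 73.2, 75.6 and 47.9 in HF, 83.5, 65.3, 40.8 and 58.6 in HF_PBS and 96.8, 45.9, 83.3 and 54.4 in HF_5AzaD. All HF libraries lay below all chow libraries, as 3.97% of tested loci did, and HF_5AzaD fell into 2 high and 2 low libraries. The difference of HF from chow was -0.57 (SE 0.246, 95% interval -1.10 to -0.0474, adjusted p = 0.696). That of HF_PBS from chow was -0.64 (adjusted p = 0.0644), which passed without HF_PBS 1 (0.0295), HF_5AzaD 3 (0.0495) or HF_5AzaD 5 (0.0467). When only chow and HF_PBS were fitted that difference also passed (adjusted p = 0.0467), whereas with all libraries fitted together Ccng1 passed in no comparison.

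Among the groups the order of means was HF_PBS, HF_5AzaD, chow, HF for Cdkn1a and Mdm2, and HF_PBS, HF_5AzaD, HF, chow for Bax and Pcna. For Ddb2 it was HF_5AzaD, HF_PBS, HF, chow, and for Zmat3 HF, chow, HF_5AzaD, HF_PBS. For Gadd45a it was HF_PBS, chow, HF_5AzaD, HF, and for Ccng1 chow, HF_5AzaD, HF, HF_PBS. Neighbours in an order passed the test against each other only for Zmat3, where chow and HF_5AzaD are neighbours. Groups fully apart were found for 5 of 8 genes in HF_PBS against HF (21.2% of loci), 4 in HF_PBS against chow (33.3%), 3 in HF_5AzaD against HF (17.7%), 3 in HF_5AzaD against chow (27.2%), 1 between HF and chow (6.95%) and 0 between HF_5AzaD and HF_PBS (2.4%).

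Correlations over the 16 libraries describe how the 8 genes varied together. These libraries share groups, depth and tissue makeup, so the values are descriptions, and all 28 pairs were computed. The highest was Mdm2 with Pcna, at a Pearson r of 0.92 and a Spearman rho of 0.89. It was 0.77 once group means were removed and 0.81 without the 2 libraries farthest from the median of Mdm2. Zmat3 ran against Ddb2 (r = -0.90, rho -0.88, -0.74 with group means removed), Pcna (-0.87, -0.92 and -0.76), Mdm2 (-0.81, -0.81 and -0.50) and Bax (-0.79, -0.75 and -0.67). Cdkn1a had much the same r with Gadd45a (0.60, 0.62 and 0.48) and with Mdm2 (0.59, 0.64 and 0.14), and nearly none with Pcna within groups (-0.04). For Ccng1 the r were -0.47 with Ddb2, -0.44 with Pcna, -0.36 with Mdm2, 0.34 with Zmat3, and between -0.10 and 0.16 with the others.

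**Figure D3:**
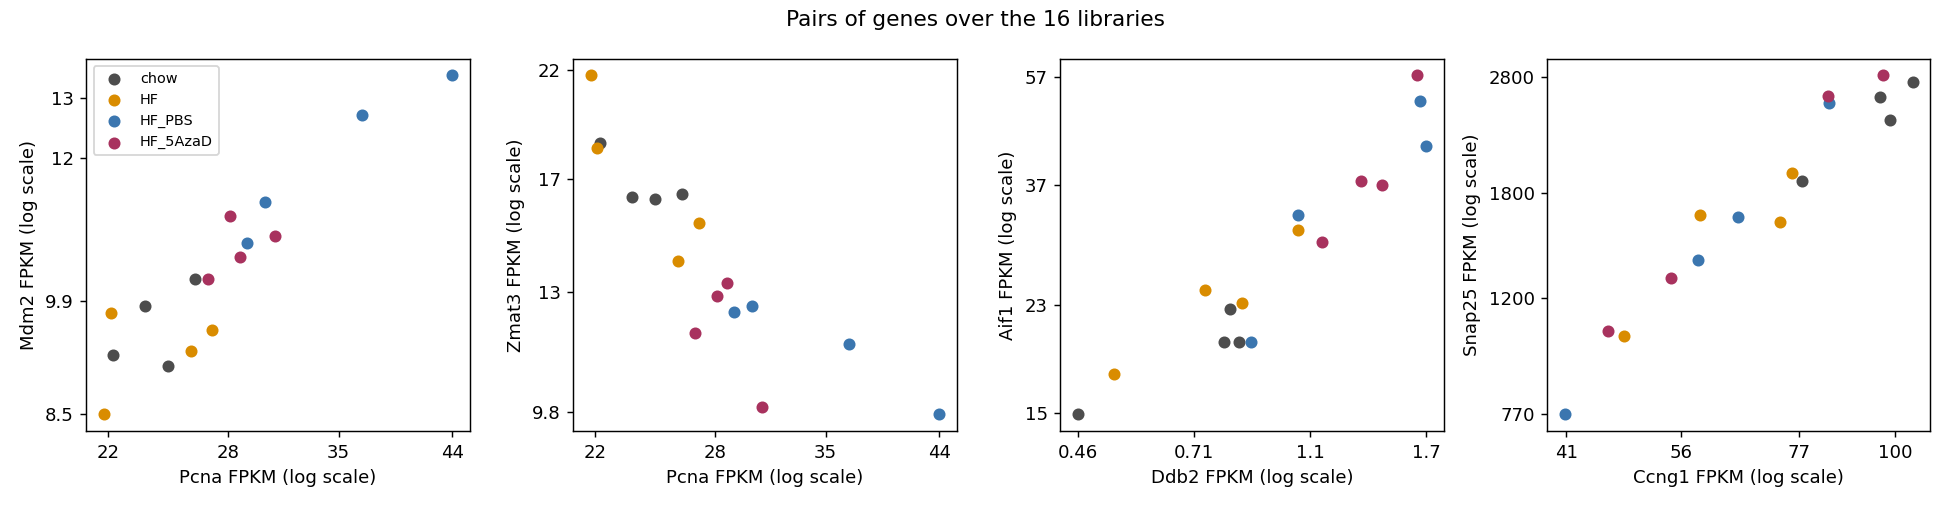
FPKM of pairs of genes, both axes on a log scale, with 1 point per library coloured by group. Pcna rises with Mdm2 and falls with Zmat3, Ddb2 rises with the microglial gene Aif1 (r = 0.95) and Ccng1 with the neuronal gene Snap25 (r = 0.97).

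Genes most like each member were sought among 10484 other loci with a symbol, by the Pearson r of log2(FPKM + 0.5) over the 16 libraries. Being the highest of so many, these r are high by selection. Ccng1 was most like Sptssb (0.97), the kinase gene Pak1 (0.97) and Snap25 (0.97). Snap25 encodes a synaptic fusion protein of neurons, and its means were 2400 FPKM in chow, 1560 in HF, 1590 in HF_PBS and 1950 in HF_5AzaD. The 10 excitatory neuron markers had a median log2 difference of only -0.10 in HF against chow, where 2 lay above 0 and 0 passed. Ddb2 was most like Aif1 (0.95), LOC100188932 (0.95) and the merged locus Ino80b,Wbp1 (0.95). Aif1, a microglial calcium-binding protein, was at 19.3, 24.0, 37.0 and 40.4 FPKM in chow, HF, HF_PBS and HF_5AzaD. Another microglia marker, Cx3cr1, was at 11.3, 16.1, 11.1 and 10.5 in that order. Of 10 tested microglia markers, 7 lay above 0 in each injected group against HF, and 0 passed there. Zmat3 was most like the ubiquitin ligase subunit gene Btrc (0.98), Klhl24 (0.97) and Mtmr9 (0.97). Mdm2 was nearest to Tpt1, Spcs1 and the nucleolar gene Gnl3 (each 0.95). Pcna was nearest to the merged locus Akr7a2,Akr7a3 (0.94), Idh1 (0.94) and Nudt2 (0.93), and Bax to Ubxn1 (0.91), Bloc1s1 (0.91) and the merged locus Mxd1,Snrnp27 (0.90). Cdkn1a was nearest to Rtcd1 (0.88), Ube2q2l (0.85) and Psmd12 (0.83), and Gadd45a to Pcp4 (0.84), Pdlim7 (0.84) and Phyhipl (0.84). Over these 24 genes Spearman's rho was 0.73 to 0.98, r with group means removed 0.74 to 0.97, and r without the 2 libraries farthest from the member's median 0.58 to 0.97.

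Cell type markers moved with several of these results. In bulk tissue fewer cells of a type and less RNA per cell cannot be told apart. The summed level of 13 oligodendrocyte markers was 3670 to 5630 FPKM in chow, 3290 to 5240 in HF, 3470 to 13800 in HF_PBS and 2380 to 7260 in HF_5AzaD. HF_PBS 3 and 4, the libraries with most Pcna and Mdm2, had 12800 and 13800. The 16 striatum markers summed to 339 to 529 in chow, 281 to 1550 in HF, where HF 8 was the high one, 307 to 1150 in HF_PBS and 266 to 409 in HF_5AzaD. In HF_PBS, libraries 2, 3 and 4 were high at 856, 924 and 1150, and HF_PBS 1 had 307. Ido1 among the striatum markers was listed at 0 in every chow and HF_5AzaD library. The 12 microglia markers summed to 196 to 217 in chow, 223 to 279 in HF, 206 to 432 in HF_PBS and 229 to 385 in HF_5AzaD, with none at 0 throughout a group. The 10 excitatory neuron markers summed to 4240 to 4860, 2490 to 5210, 1370 to 4390 and 2860 to 5310 in the same order. Astrocyte markers (10) summed to 1900 to 2340, 1730 to 2810, 2080 to 3080 and 2200 to 2290, interneuron markers (9) to 697 to 810, 531 to 737, 736 to 974 and 461 to 938, and endothelial and mural markers (13) to 231 to 358, 212 to 371, 241 to 333 and 213 to 380. Choroid plexus and meningeal markers (12) stayed at 29.6 to 96.7 in all libraries, with Otx2 and Col1a2 listed at 0 throughout. Blood markers (7) summed to 299 to 618, 381 to 678, 245 to 737 and 716 to 1270. Of these, Hba1 and Hba2 share the merged locus Hba1,Hba2, which entered the sum under both names and so inflates it.

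A score, the mean over a marker list of log2(FPKM + 0.5) less each gene's own mean, was set beside each member over the 16 libraries, 72 relations in all. Ccng1 ran with the excitatory neuron score (r = 0.77, 0.83 with group means removed) and against the microglia score (-0.79 and -0.73). Ddb2 ran with the microglia score (0.80 and 0.81) and against the excitatory neuron score (-0.79 and -0.69). For Gadd45a the highest value was with the interneuron score (0.76 and 0.67). Zmat3 ran with the excitatory neuron score (0.69 and 0.50). Pcna (-0.70 and -0.59, rho -0.82) and Mdm2 (-0.63 and -0.44, rho -0.61) ran against the excitatory neuron score. Both also ran with the oligodendrocyte score by r (0.65 and 0.53 for Pcna, 0.63 and 0.53 for Mdm2), where Spearman's rho was 0.13 and 0.14. HF_PBS 3 and 4 had scores of 1.22 and 1.21, and the highest score outside HF_PBS was 0.41. For Cdkn1a and Bax no r exceeded 0.48. The part of tissue makeup in the differences between groups was not tested.

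HF 8, HF_PBS 3 and HF_PBS 4 were high in striatum markers, and a fit without them leaves 2 HF_PBS libraries. In that fit 0 of 8 genes passed in HF_PBS against HF and against chow, where 7 and 3 of all loci still did. The difference of HF_PBS from HF was then -0.49 for Zmat3 (adjusted p = 0.125), 0.35 for Pcna (0.101), 0.25 for Mdm2 (0.154) and 0.74 for Cdkn1a (0.202). Without HF_PBS 2 as well, whose striatum markers were also high, a single HF_PBS library remained, and these values were -0.48, 0.37, 0.29 and 1.16. From chow, the differences of HF_PBS without HF 8, HF_PBS 3 and HF_PBS 4 were 0.27 for Ddb2, 0.19 for Mdm2, 0.29 for Pcna and -0.42 for Zmat3. Neither fit leaves out a chow or HF_5AzaD library, so the log2 differences between those groups were unchanged. Their adjusted p still moved with the shared spread. Without HF 8, HF_PBS 3 and HF_PBS 4 it was 0.0332 for Ddb2 and 0.0281 for Zmat3 in HF_5AzaD against chow.

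Of 33 further p53 targets 25 were tested. In HF_PBS against HF 1 rose and 2 fell, with a median of -0.03: Gadd45b, a relative of Gadd45a, rose from 7.96 ± 2.39 to 11.9 ± 0.949 FPKM (adjusted p = 0.0431), while Apaf1, the core of the apoptosome, fell from 2.96 to 1.77 (0.0277) and Zfp365 from 135 to 85.3 (0.0491). In HF_PBS against chow 2 rose, Tp53inp1 (1.85 to 2.61, adjusted p = 0.0428) and Ephx1 (7.34 to 9.95, 0.0489), and 2 fell, Sesn2 (6.56 to 4.89, 0.0179) and Zfp365 (0.0394). In HF_5AzaD against chow 2 rose and 0 fell: Xpc, a sensor of nucleotide excision repair (5.47 to 7.49, adjusted p = 0.0427), and Perp (1.33 ± 0.340 to 5.13 ± 5.07, 0.0495). In HF_5AzaD against HF 1 rose, Gadd45b (7.96 to 12.6, adjusted p = 0.0455). In these 4 comparisons 12%, 16%, 8% and 4% of the 25 passed, beside 23.9%, 28.2%, 16.3% and 14.2% of all loci. In this and each of the following lists 0 passed between HF and chow, or between HF_5AzaD and HF_PBS.

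Of 18 tested genes in the list of p53 and its regulators, 3 rose and 3 fell in each comparison of HF_PBS with an uninjected group. This is 33.3% of the list in each, beside 23.9% of all loci from HF and 28.2% from chow. Rpl5 (52.7 to 77.9 FPKM from HF, adjusted p = 0.00926) and Rpl11 (41.2 to 65.0, 0.0124) rose. They are ribosomal proteins that can bind Mdm2, and their many gene copies make single values uncertain. The p53 cofactor Ppp1r13b fell from 20.3 to 13.1 (adjusted p = 0.00489) and Usp7, which removes ubiquitin from p53 and Mdm2, from 37.3 to 30.3 (0.0455). In HF_5AzaD 2 rose from HF (Rpl11 and Rpl5), and against chow 1 rose, Rpl11, and 1 fell. Each is 11.1% of the list, beside 14.2% of all loci from HF and 16.3% from chow. Mdm4, the relative of Mdm2, passed in no comparison, with means of 8.63, 9.33, 10.9 and 11.1 FPKM in chow, HF, HF_PBS and HF_5AzaD.

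Of 13 damage kinases and checkpoint genes, 2 rose and 0 fell in HF_PBS against HF, and 2 and 1 against chow. In HF_5AzaD 3 rose and 1 fell against chow, and 1 and 0 against HF. In that order 15.4%, 23.1%, 30.8% and 7.69% of the list passed, beside 23.9%, 28.2%, 16.3% and 14.2% of all loci. Chek1, a kinase of the replication checkpoint, rose in all 4 comparisons. It was low, at 0.799 ± 0.116 FPKM in chow, 0.815 ± 0.177 in HF, 1.48 ± 0.180 in HF_PBS (adjusted p = 0.0139 from HF) and 1.53 ± 0.313 in HF_5AzaD (0.0197 from HF). Its chow and HF means were under the minimum of 1 FPKM, so it was tested only because the injected groups were higher. H2afx, the histone variant phosphorylated at breaks, rose from 19.5 in chow to 26.4 in HF_PBS (adjusted p = 0.00902) and 26.1 in HF_5AzaD (0.0217), and from 21.0 in HF to 26.4 in HF_PBS (0.0329). Rnf168, a ubiquitin ligase at breaks, fell from 9.08 in chow to 7.20 and 7.17 (adjusted p = 0.0134 and 0.0226). The merged locus Atrip,Trex1 rose in HF_5AzaD against chow and passed in no other comparison (10.1 to 14.3, adjusted p = 0.0324).

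Of 14 nucleotide excision repair genes tested, 1 rose and 4 fell in HF_PBS against HF, 1 and 3 in HF_PBS against chow, 1 and 2 in HF_5AzaD against chow, and 0 and 1 in HF_5AzaD against HF. Over all loci 13.2%, 15.7%, 9.11% and 7.64% fell in these comparisons. Of the 14, 7 lay above 0 in HF_PBS against HF, with a median of 0.00. Ddb1, the partner of Ddb2 in damage recognition, fell where Ddb2 rose or lay higher: chow had 57.0 ± 4.52 FPKM and HF 58.5 ± 6.27, against 40.2 ± 5.79 in HF_PBS (-0.54 from HF, adjusted p = 0.00514) and 42.4 ± 3.43 in HF_5AzaD (-0.46, 0.0196). Cul4a, the scaffold of the same ligase, fell from 24.5 in HF to 20.3 in HF_PBS (adjusted p = 0.0221). Xpa rose from 1.37 in chow to 2.59 in HF_PBS (0.00468) and 2.28 in HF_5AzaD (0.0217).

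Base excision repair genes (15 tested) numbered 0 up and 2 down in HF_PBS against HF, 1 and 2 in HF_PBS against chow, 1 and 1 in HF_5AzaD against chow and 1 and 1 in HF_5AzaD against HF. That is 13.3%, 20%, 13.3% and 13.3% of the list, beside 23.9%, 28.2%, 16.3% and 14.2% of all loci. The ligase gene Lig3 fell from 4.59 in HF to 3.05 in HF_PBS (adjusted p = 0.03) and 2.75 in HF_5AzaD (0.0194), and the scaffold Xrcc1 rose from 21.7 in chow to 33.5 and 34.0 (0.0141 and 0.0213). Strand break and crosslink repair genes (20 tested) rose in 2, 3, 2 and 1 cases in the same order and fell in 0. Those shares lie near the 10.7%, 12.4%, 7.18% and 6.61% of all loci that rose. Xrcc6, the Ku70 subunit, rose from 8.24 in HF to 11.5 in HF_PBS (adjusted p = 0.0141), Msh3 from 3.12 to 4.97 in HF_5AzaD (0.0177) and Rad52 from 2.53 in chow to 4.10 in HF_5AzaD (0.0205). Genes that load or use Pcna in replication (18 tested) gave 1 up and 1 down in each HF_PBS comparison, 0 and 0 in HF_5AzaD against chow, and 0 and 1 in HF_5AzaD against HF. That is 11.1%, 11.1%, 0% and 5.56% of the list, beside the shares of all loci given for base excision repair. The polymerase subunit Pold4 rose from 7.24 in chow to 10.4 in HF_PBS (adjusted p = 0.0204). Dnmt1, the maintenance methyltransferase that Pcna recruits, fell from 7.51 in HF to 6.24 in HF_PBS and 6.16 in HF_5AzaD (0.0331 and 0.0367).

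Of 19 genes of dividing cells 10 were tested and 0 passed in any comparison. The lowest p in HF_5AzaD against HF was that of Birc5, survivin, at 1.48 in HF and 2.18 in HF_5AzaD (adjusted p = 0.103), and in HF_PBS against chow that of Ccne2, cyclin E2, at 4.28 and 5.15 (0.0696). Mki67, Top2a and Cdk1, the defining markers, had means of 0.251, 0.313 and 0.493 FPKM over all libraries and were not tested. Of 18 genes of the Bcl2 family and caspases, the partners of Bax, 2 rose and 3 fell in HF_PBS against HF, 2 and 2 against chow, 0 and 2 in HF_5AzaD against chow and 1 and 2 against HF. That is 27.8%, 22.2%, 11.1% and 16.7% of the list, beside 23.9%, 28.2%, 16.3% and 14.2% of all loci. Diablo, released from mitochondria in apoptosis, rose from 8.36 in HF to 11.7 in HF_PBS (adjusted p = 0.00837), Casp9 fell from 26.2 to 17.1 (0.00408) and the survival gene Bcl2l2 from 67.8 to 48.5 (0.00997). Of 12 cyclins and inhibitors, 2 rose and 1 fell in HF_PBS against HF, 4 and 0 against chow, and 2 and 0 in HF_5AzaD against chow and against HF. In that order 25%, 33.3%, 16.7% and 16.7% of the list passed, beside 23.9%, 28.2%, 16.3% and 14.2% of all loci. The pocket protein gene Rbl2 was at 12.6 in HF and 17.2 in HF_PBS (adjusted p = 0.00813). Rb1, counted as a rise in all 4, is the merged locus Itm2b,Rb1, at 311 FPKM in HF and 451 in HF_PBS. Its values cannot be assigned to either gene. Glucocorticoid response genes, a list of another stress pathway, rose in 6 of 17 in HF_PBS against HF, 2 in HF_PBS against chow, 2 in HF_5AzaD against chow and 4 in HF_5AzaD against HF, and fell in 0, where 10.7%, 12.4%, 7.18% and 6.61% of all loci rose. The list's median was -0.42 in HF against chow, with 3 of 17 above 0, and -0.01 in HF_PBS against chow. Mt1a rose from 4.15 in HF to 9.59 in HF_PBS (adjusted p = 0.00453).

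**Figure D4:**
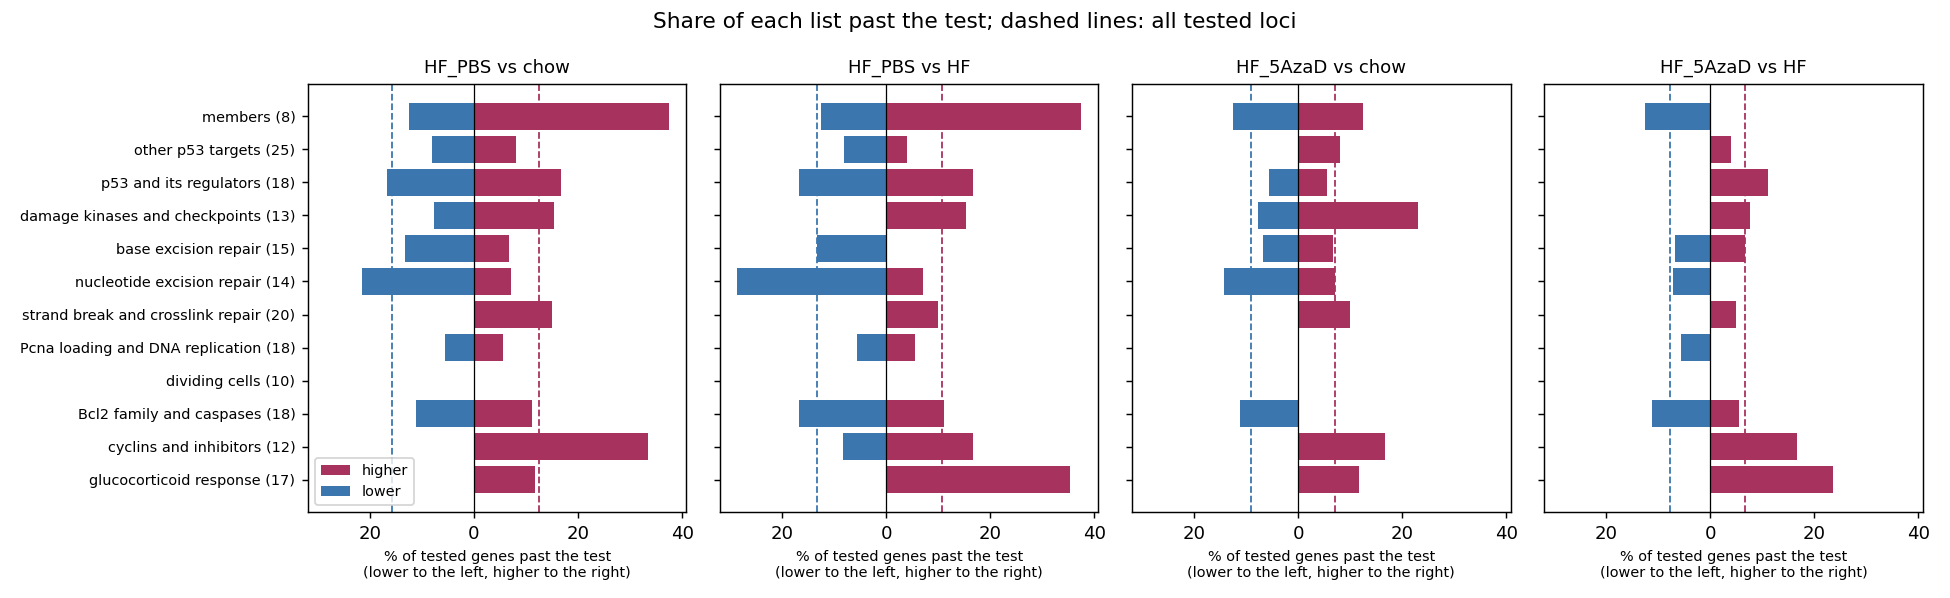
Percent of tested genes of each list (number tested in brackets) past an adjusted p of 0.05, lower to the left and higher to the right, in the 4 comparisons of an injected with an uninjected group. Dashed lines give the same percent over all 14824 loci, for example 10.7% higher and 13.2% lower in HF_PBS against HF, and dividing cell genes have no bar in any panel.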

How the data were processed

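FPKM values for merged loci, 1 column per library, were computed and deposited by the authors, and a column beside each says OK, FAIL or HIDATA. Cuffdiff, Cufflinks, Bowtie, Bowtie2, TopHat, TopHat2 and build rn5 stand in the submitters' processing notes, with no version or role. Per the labels' protocols, about 1000 ng of total RNA was poly-A selected and random primed. Strand use in counting was not stated, and overlapping or antisense transcripts may share reads. The table held 0 value columns from outside the series.

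Samples were grouped by stated treatment. Loci with any status other than OK (161, of which 136 reached the minimum) were left out, and the 14824 loci averaging 1 FPKM or more were tested with limma 3.58.1 (R 4.3.3; eBayes with a mean trend) on log2(FPKM + 0.5), with 1 mean per group and 12 residual degrees of freedom. The fit was tested on simulated data. Tables and plots used Python 3.11.15, pandas 2.3.3 and matplotlib 3.10.9. Read counts were not used here. The lowest FPKM values fall in steps, but their ratios between libraries were ambiguous by a factor of 2, so depth is unknown and no counting interval is given; 23064 to 24333 loci were above 0 in a library.

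The 8 genes, the 11 other pathway lists and the 9 marker lists were chosen with earlier results of these data known. Genes named from a list are the called ones with the lowest adjusted p, up to 3 per direction and comparison, or the lowest p where none was called, and the text gives a selection of these; Mdm4, Mki67, Top2a and Cdk1 were added after their values were seen. The most alike genes are the 3 highest Pearson r per member. Alternatives were other pseudocounts, filters, scalings, locus choices, spread estimates, left-out libraries and a replicate block. Replicate numbers gave no sign of pairing. Some genes counted in the list of p53 regulators are not reported here by name.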

Additional observations from a re-analysis of the deposited data

Results flagged for a closer look

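Of 32 groups of 4 values (8 genes in 4 groups), 2 held a library far from the other 3 by Dixon's ratio, where chance gives about 1 in 20. Both were chow 4. Ddb2 was at 0.459 FPKM there against 0.794 to 0.842 in the other chow libraries (ratio 0.876), and Zmat3 at 18.5 against 16.2 to 16.4 (ratio 0.905). Without chow 4 the difference of HF_5AzaD from chow was 0.52 for Ddb2 (adjusted p = 0.114) and -0.44 for Zmat3 (adjusted p = 0.0795, limma).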

How the results depend on the processing

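All 1354 values of single genes under the alternatives kept the direction of every called difference. Among them 1278 stayed on their side of the threshold, 68 lost a call and 8 gained one. The number of genes called, 4 of 8 in HF_PBS against HF, was 0 when only these groups were fitted and 0 without the libraries high in striatal markers (HF 8, HF_PBS 3 and HF_PBS 4, or also HF_PBS 2, a choice made after seeing the data). In HF_PBS against chow the 4 calls became 0 without the same libraries in either case. In HF_5AzaD against HF the single call became 0 when only the groups compared were fitted, and 2 under quantile normalization and 2 without HF 8, HF_PBS 3 and HF_PBS 4. In HF_5AzaD against chow the 2 calls became 1 with no filter on low values and 1 with a mean of at least 5 FPKM, where Ddb2 is no longer tested. Leaving out 1 library at a time gave 3 to 5 calls in HF_PBS against HF, 2 to 5 in HF_PBS against chow, 0 to 2 in HF_5AzaD against chow, 0 to 1 in HF_5AzaD against HF and 0 in the other 2 comparisons. Loci called over the whole table fell from 3536 to 1433 in HF_PBS against HF and from 2112 to 27 in HF_5AzaD against HF when only the groups compared were fitted. Leaving out 1 library gave 1633 to 4036 and 395 to 2344 there, and 2013 to 4629 and 399 to 2906 for HF_PBS and HF_5AzaD against chow, in place of 4173 and 2414. With a replicate block, the number of genes called was 1 in HF_PBS against chow (2331 loci) and 0 in HF_5AzaD against HF (0 loci, 3 shared numbers). Same-numbered libraries correlated at -0.164 to 0.0641 after group means were removed, and 0 of 7 matched best with their own number, so the numbers were not taken to pair samples. The cause of the other changes was not tested. The unknown depth limits most the low genes, Ddb2 above all.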
